A study of Homo sapiens with 6 samples.

Results

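The genes described here are 10 components and inhibitors of mTORC1, the nutrient-sensing protein kinase complex, in cells labelled TPC-1, a human line from papillary thyroid carcinoma. They are the stress-induced inhibitors DDIT4, SESN1, SESN2 and SESN3, the inhibitor DEPTOR, the TSC complex subunits TSC1 and TSC2, the GTPase RHEB, and the core subunits MTOR and RPTOR. A probe set, a group of short probes against 1 transcript region, was taken where the platform annotation gave it exactly 1 gene symbol equal to one of these, which found 29 probe sets for 10 of 10 genes, among 18132 genes measured. The set was chosen by its values in this same contrast, the log2 difference of DDIT4 being the second largest of all genes, so the values of the 10 genes are a description, with no test. The cells were grown in RPMI1640 with fetal bovine serum and infected with a lentivirus that expressed a short hairpin RNA, either FAM60A shRNA or control shRNA. The genotype label of the first group reads FAM60A1 knockdown and that of the second reads control. Each group had 3 samples with 1 Affymetrix array each, described as independent, with nothing said of separate cultures, so a p-value here speaks only to the scatter among these 6 samples, part of which may be technical. The labels name neither the shRNA sequence nor the promoter that drives it.

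FAM60A, whose current symbol is SINHCAF, encodes a subunit of the SIN3-HDAC co-repressor complex, and its signal went against the labels. It stood at 0.63, 0.57 and 0.60 in the arrays labelled FAM60A shRNA and at -0.58, -0.66 and -0.68 in those labelled control shRNA, on a log2 scale relative to the median of the 6 arrays. The log2 difference was 1.24 ± 0.038 (SE, n = 3 per group; limma, adjusted p = 1.08e-06; two-sided exact permutation p = 0.1, the smallest possible with 3 against 3 arrays). Groups are therefore named by their labels below, and "higher" or "lower" means in the arrays labelled FAM60A shRNA relative to those labelled control shRNA. Were the labels of the 2 groups exchanged, every sign below would turn, that of DDIT4 included. Each SE and confidence interval of a difference, here and below, is the moderated one from limma. It draws on the variances of all genes or probe sets, so it is not the scatter of that gene's arrays alone. The extraction protocol names another line, DLD1, from colorectal cancer. In the fit across all genes 44.9% of genes passed, 19.8% higher and 25% lower. Of 9 intestinal markers measured 6 rose, the differences of the 9 running from 0.030 to 2.20 around a median of 0.82, and 4 of the 9 had a probe set in the highest level class defined below, while VIL1 and LGALS4 had theirs in the lowest alone. Of 8 thyroid markers 1 fell, HHEX at -0.97, and the other 7 did not pass. The receptor gene TSHR was the one thyroid marker with probe sets in the lowest level class alone (3 of 3). TG had 1 of 3 there, PAX8 1 of 4, and NKX2-1 and SLC5A5 1 of 2 each. DIO1 was the one with a probe set in the highest class, 1 of its 7, and the other 6 lay in the lowest. Of 4 leukocyte markers 1 rose, CD68 at 0.26, with 5 of 6 probe sets of PTPRC in the lowest class, and of 5 fibroblast markers 0 passed, 4 of them with probe sets in the lowest class alone. Summed marker levels cannot be given, since the deposited values were centred. The part of the cell label and of these marker differences in the values below was not tested, and RNA of a whole culture cannot tell fewer cells of a kind from less RNA per cell.

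mTORC1 drives protein, lipid and nucleotide synthesis and holds back autophagy when amino acids, growth factors, energy and oxygen suffice. RHEB, a small GTPase on the lysosome, switches the kinase on when bound to GTP, and the TSC complex switches RHEB off by stimulating GTP hydrolysis. DDIT4, also called REDD1, is induced by hypoxia, amino acid shortage, endoplasmic reticulum stress and glucocorticoids, and restrains mTORC1 through the TSC complex. The sestrins restrain it by binding GATOR2 when leucine is low, and their genes respond to p53, FOXO factors or ATF4.

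The promoters of DDIT4 and SESN2, the members with the largest positive differences, are shown beside that of MTOR, whose signal was lower, so that the letters they share can be read. Each run is the 250 bases before the transcription start on the gene's own strand, from RefSeq (GRCh38.p14). The regions are chr10:72273674-72273923 on the plus strand for DDIT4, chr1:28259268-28259517 on the plus strand for SESN2 and chr1:11262552-11262801 on the minus strand for MTOR. Capitals mark CCAAT, the letters that NF-Y binds, which read ATTGG when they lie on the opposite strand, and ACGTG, the core of a hypoxia response element.
DDIT4: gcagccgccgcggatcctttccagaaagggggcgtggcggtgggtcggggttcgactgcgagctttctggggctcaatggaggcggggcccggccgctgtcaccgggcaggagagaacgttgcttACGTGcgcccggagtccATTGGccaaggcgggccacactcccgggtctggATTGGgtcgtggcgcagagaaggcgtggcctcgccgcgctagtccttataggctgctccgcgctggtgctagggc
SESN2: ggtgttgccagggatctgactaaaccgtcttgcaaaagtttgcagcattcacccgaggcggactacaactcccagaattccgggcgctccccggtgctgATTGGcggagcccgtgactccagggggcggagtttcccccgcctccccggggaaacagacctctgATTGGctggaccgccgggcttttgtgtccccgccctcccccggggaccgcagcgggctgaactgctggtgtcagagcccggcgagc
MTOR: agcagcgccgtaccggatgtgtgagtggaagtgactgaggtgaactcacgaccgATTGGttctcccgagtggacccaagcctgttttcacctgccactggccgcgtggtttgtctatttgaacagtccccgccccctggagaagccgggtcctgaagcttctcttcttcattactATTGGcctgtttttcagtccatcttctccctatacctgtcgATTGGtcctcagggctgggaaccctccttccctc

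CCAAT was found on the opposite strand at 108 to 104 and 75 to 71 bases before the start of DDIT4, at 151 to 147 and 86 to 82 bases before that of SESN2, and at 196 to 192, 75 to 71 and 34 to 30 bases before that of MTOR. The promoter table held 9 of the 10 genes in 12 windows, 3 of them for SESN1 and 2 for TSC2, and did not list DEPTOR. Searched on both strands, CCAAT was in 6 of the 12 windows, those of DDIT4, SESN2, MTOR, RHEB and 2 of SESN1, against 32% of 35116 promoters. ACGTG was in 3 windows, at 125 to 121 bases before the start of DDIT4 and also in RHEB and TSC2, against 18.5% of promoters. The letters TGATGNAA, part of the composite site of ATF4 and C/EBP factors, were in 1 window, of TSC2 (3.14% of promoters), where they overlapped a CACGTG E-box (6.34% of promoters), which itself holds ACGTG. The GC box GGGCGG was in 9 windows (42.6% of promoters) and the forkhead letters GTAAACA in 0 (2.98%). Of the 3 members with higher signal, CCAAT thus occurred before DDIT4 and SESN2, and the promoter of DEPTOR was not searched. It also occurred before some with lower signal, and a match is a description of the letters alone.

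The deposited values are log2 expression values from which each probe set's median over the 6 arrays had been subtracted, so 0 is that median and a value is a difference from it. When the groups do not overlap, this centring puts the highest array of the lower group and the lowest array of the higher group at equal distances from 0. Expression levels were removed except for a coarse class, which the rounding step of the values still shows, namely whether the array with the lowest signal had a log2 level of 2 to 4, 4 to 8 or 8 to 16. The lowest class held 16 of the 17 control tags that have no target, and the highest class 9 of 9 hybridisation controls. The highest class also took in 776 probe sets, 6.44% of it, whose step read as a level above 16. The class of a single probe set is therefore a rough reading. Of the 29 probe sets of the 10 genes, 7 lay in the class of 8 to 16, 17 in that of 4 to 8 and 5 in that of 2 to 4. A gene's value is the mean of its probe sets.

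DDIT4 separated the groups by far more than any other of the 10 genes. Its single probe set gave 1.48, 1.45 and 1.48 in the arrays labelled FAM60A shRNA and -1.45, -1.53 and -1.64 in those labelled control shRNA. The groups did not overlap, and the 3 FAM60A shRNA arrays lay closer together (SD 0.018, n = 3) than the 3 control arrays (SD 0.094, n = 3). The log2 difference of 3.01 ± 0.050 (SE, n = 3 per group) corresponds to a signal 8.04 times as high (95% confidence interval 7.41 to 8.73). Among all genes 1 had a larger difference, S100P, which encodes a calcium-binding protein. The probe set read as the level class of 8 to 16, which would place DDIT4 well above the control tags in both groups, but where a difference is this large only the 3 lower arrays can show a finer step, so the class is less sure than for the other genes.

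Of the 3 sestrins, SESN2 was higher, SESN1 lower, and the groups overlapped for SESN3. SESN2, the leucine-binding sestrin that ATF4 induces, stood at 0.37, 0.35 and 0.34 in the arrays labelled FAM60A shRNA against -0.34, -0.38 and -0.34 in those labelled control shRNA. Its log2 difference was 0.71 ± 0.030 (SE, n = 3 per group), or 1.63-fold (95% confidence interval 1.55 to 1.72), and its 2 probe sets gave the same 0.71, both in the class of 8 to 16. SESN1, a p53-induced sestrin, stood at -0.15, -0.17 and -0.16 against 0.19, 0.12 and 0.14, and differed by -0.31 ± 0.032. Its 2 probe sets lay at -0.20 and -0.41, both in the class of 4 to 8, and the groups overlapped in neither. SESN3, a target of FOXO factors, stood at 0.088, -0.0002 and -0.078 against 0.0002, 0.0091 and 0.12, and the groups overlapped. Its log2 difference was -0.040 ± 0.054 (95% confidence interval of the fold 0.891 to 1.06). Both probe sets of SESN3 lay in the lowest class, the one that holds most control tags without a target, and the sign of its difference turned to 0.0011 without replicate 3 labelled FAM60A shRNA.

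DEPTOR, which binds mTOR directly and inhibits both of its complexes, was slightly higher. It stood at 0.21, 0.088 and 0.25 in the arrays labelled FAM60A shRNA and at -0.092, -0.12 and -0.078 in those labelled control shRNA. The log2 difference was 0.28 ± 0.047 (moderated SE, 3 arrays each). The 3 probe sets gave 0.40, 0.26 and 0.18, and the groups did not overlap in any of them. The largest of the 3 lay in the lowest level class, and without that class the difference was 0.22.

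Both TSC subunits that were among the 10 genes were lower. TSC1, the scaffold subunit hamartin, stood at -0.11, -0.32 and -0.29 in the arrays labelled FAM60A shRNA. Those labelled control shRNA read 0.12, 0.20 and 0.24, a log2 difference of -0.43 ± 0.064 (moderated SE, 3 arrays each). The groups did not overlap in any of its 4 probe sets, whose differences were -0.21, -0.30, -0.46 and -0.74. The last of these, from the probe set in the class of 8 to 16, rested mostly on 2 arrays, since the 3 arrays labelled FAM60A shRNA read -0.15, -0.81 and -0.65 (SD 0.34) and those labelled control shRNA 0.17, 0.15 and 0.28. TSC2, the GTPase-activating subunit tuberin, stood at -0.14, -0.19 and -0.0008 against 0.0008, 0.25 and 0.11, groups that all but touched. Its log2 difference was -0.23 ± 0.075, with -0.17 from the probe set of the class of 8 to 16 and -0.29 from one of the class of 4 to 8 whose groups overlapped. With 1 array left out, the TSC2 difference ran from -0.29 to -0.16.

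For RHEB the probe sets differed among themselves. The gene mean was lower, at -0.072, -0.090 and -0.065 in the arrays labelled FAM60A shRNA against 0.079, 0.058 and 0.064, a log2 difference of -0.14 ± 0.029 (SE, 3 arrays each). A single probe set, in the class of 4 to 8, gave most of it, at -0.20, -0.38 and -0.31 against 0.26, 0.26 and 0.20, a difference of -0.54 ± 0.056. The other 3 lay at -0.094, -0.046 and 0.11, and the 2 in the class of 8 to 16 were the first and second of these. With the probe set of largest variance standing for the gene, the difference of RHEB was thus -0.54 rather than -0.14.

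Of the core subunits, MTOR was lower and RPTOR was split between its probe sets. MTOR, the kinase itself, stood at -0.19, -0.15 and -0.074 in the arrays labelled FAM60A shRNA and at 0.24, 0.11 and 0.17 in those labelled control shRNA, a log2 difference of -0.31 ± 0.048 (SE, 3 arrays each). The 2 probe sets of the class of 4 to 8 gave -0.38 and -0.49 without overlap, and the third, of the lowest class, gave -0.058 with overlap. RPTOR, the scaffold that brings substrates to the kinase, had a gene mean of -0.064, -0.10 and 0.051 against -0.044, 0.044 and -0.0032, with overlapping groups and a difference of -0.037 ± 0.048. Behind this mean, 3 of its 6 probe sets were higher, at 0.23, 0.22 and 0.13, and the groups did not overlap in any of the 3. Another was lower, at -0.49, -0.45 and -0.20 against 0.20, 0.27 and 0.32, a difference of -0.64 ± 0.084, and the last 2 lay at -0.11 and -0.039. The gene mean of RPTOR thus averages differences of opposite sign.

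**Figure D1:**
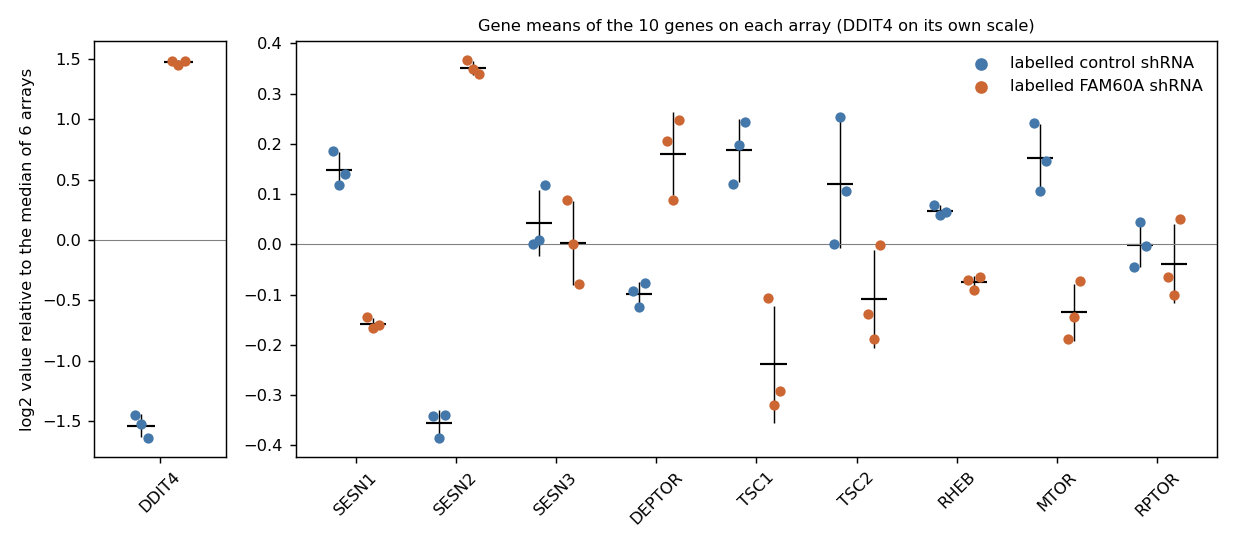
Each point is the mean log2 value of a gene's probe sets on 1 array, relative to the median of the 6 arrays, for the 3 arrays of each label (short horizontal lines are means, vertical lines SD, n = 3); DDIT4 has a vertical scale of its own. DDIT4 and SESN2 are higher and SESN1, TSC1, RHEB and MTOR lower in the arrays labelled FAM60A shRNA without overlap, whereas the points of SESN3 and RPTOR overlap.

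**Figure D2:**
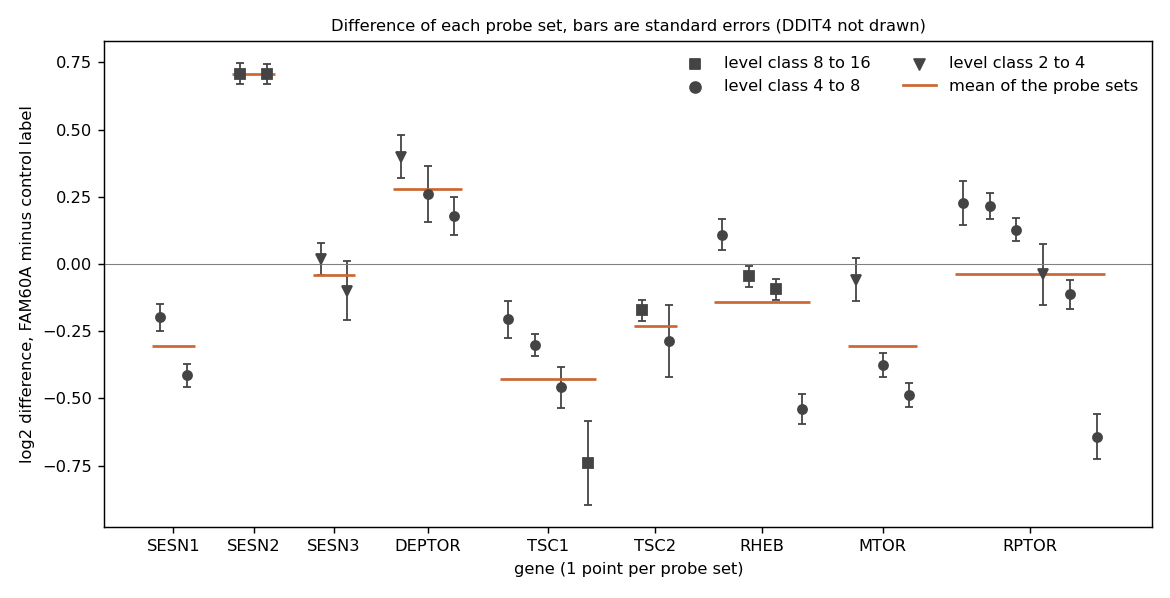
Each point is the log2 difference of 1 probe set, FAM60A shRNA minus control shRNA label, for the 9 genes other than DDIT4. Bars are moderated standard errors from limma (n = 3 per group). The marker gives the level class and the orange line the gene mean. The 2 probe sets of SESN2 coincide, whereas those of RHEB run from -0.54 to 0.11 and those of RPTOR from -0.64 to 0.23.

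Counted in the fit across all genes, 8 of the 10 genes passed the threshold of an adjusted p under 0.05 (limma), 3 higher and 5 lower, where 44.9% of all 18132 genes passed, 19.8% higher and 25% lower. After cyclic loess normalization of the centred values the split over all genes was nearly even, with 4063 higher and 4049 lower, against 3595 and 4541 here. With levels removed, that step works on differences from the median, so it cannot tell which split the expression levels would give. The 3 higher were DDIT4, SESN2 and DEPTOR, and the 5 lower SESN1, TSC1, TSC2, RHEB and MTOR. The groups did not overlap in these 8 genes, as in 53.2% of all genes. Only DDIT4 of the 10 differed by at least 2-fold, a size that 1.2% of all genes reached upward and 0.292% downward. At the level of probe sets, 5 of 29 were higher and 11 lower, where 40.8% of 49293 probe sets passed, 18.1% higher and 22.7% lower. In 22 of the 29 the 2 groups stood apart, beside 50.4% of all probe sets. DEPTOR was not among those that passed without the lowest level class, nor TSC2 without control shRNA replicate 2 or 3 or FAM60A shRNA replicate 1 or 2. The members were chosen with this contrast known, so these calls are no test of them and nothing is read from the counts. Probe sets of both signs occurred in 3 of the 9 genes with several probe sets, SESN3, RHEB and RPTOR, and RPTOR alone of the 9 had one probe set called higher and one called lower, which happened in 3.71% of the 11734 genes with several.

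The genes whose 6 values lay nearest to those of DDIT4 included the chemokine genes CCL20 and CXCL3. By root mean square distance over the 6 gene values, on the log2 scale, CCL20 came first at 0.089, followed by CXCL3 at 0.095, SEL1L3 at 0.15, the secreted ligand BMP2 at 0.21 and S100P at 0.27. With 2 groups of 3 arrays this distance mostly measures the size of the difference between groups, which was 2.93, 2.84, 2.71, 2.60 and 3.55 for these genes.

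**Figure D3:**
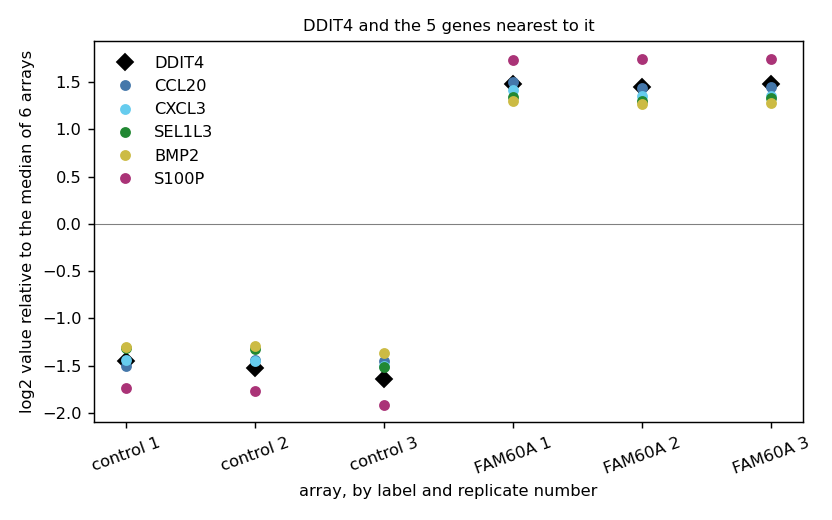
Points give the log2 value of DDIT4 (black diamonds) and of the 5 genes nearest to it on each of the 6 arrays, relative to the median of the 6 arrays, with array labels and replicate numbers on the horizontal axis. The 3 arrays labelled FAM60A shRNA read 1.48, 1.45 and 1.48 for DDIT4, and S100P lies above the other 5 genes there and below them in the arrays labelled control shRNA.

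The partners of mTOR in its complexes held 2 clear rises, both of proteins that belong to mTORC2, the sister complex that phosphorylates AKT. Among 9 partners and assembly factors, 4 rose, 1 fell and 4 did not pass, and the median was 0.092, beside -0.012 over all genes, and 55.6% passed, beside 44.9% of all genes (limma, adjusted p under 0.05 over all genes here and below). PRR5, a subunit of mTORC2, rose by 0.95 ± 0.033 (SE, n = 3 per group) and its relative PRR5L by 0.84 ± 0.036. MLST8, shared by both complexes, rose by 0.34, and TTI2, a co-chaperone of kinase assembly, fell by 0.26. RICTOR (0.044), the defining subunit of mTORC2, and AKT1S1 (-0.037), the inhibitory subunit PRAS40, did not pass. Among the paralogs and the remaining TSC subunit, TBC1D7, that subunit, fell by 0.77 ± 0.034, while DDIT4L (-0.085), the paralog of DDIT4, and RHEBL1 (-0.057), that of RHEB, did not pass. The single probe set of DDIT4L lay in the lowest level class.

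Genes of the lysosomal platform on which amino acids recruit mTORC1 mostly fell. Among 12 Rag GTPase, Ragulator and folliculin complex genes, 8 fell, 1 rose and 3 did not pass. That is 75% past the test, beside 44.9% of all genes, and the median was -0.17. RRAGC, a Rag GTPase, fell by 0.59 ± 0.036 (SE, n = 3 per group), all 4 of its probe sets lying between -0.65 and -0.51, and LAMTOR4, a Ragulator subunit, fell by 0.59 ± 0.029. RRAGB fell by 0.44 and RRAGA by 0.18. The only probe set of RRAGA is of the cross-matching kind, whose probes may match several transcripts. FNIP2, a partner of folliculin, was the one that rose (0.16). The upstream complexes that sense amino acids went both ways, with 4 of 13 higher, 5 lower and 4 not past the test, where 19.8% of all genes were higher and 25% lower, and a median of -0.013. MIOS of GATOR2, the complex that sestrins bind, rose by 0.40, and NPRL2 of GATOR1, which inactivates the Rag GTPases, rose by 0.23. Within these complexes other genes went either way, since SEH1L of GATOR2 rose by 0.17, SEC13 of GATOR2 fell by 0.18 and DEPDC5 of GATOR1 fell by 0.17. KPTN and ITFG2 of KICSTOR, the anchor of GATOR1, fell by 0.39 and 0.25, whereas KICS2 of KICSTOR rose by 0.23. The 6 probe sets of ITFG2 ran from -0.44 to 0.080.

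Of 12 genes of AKT and AMPK signalling, the growth factor and energy inputs to the TSC complex, 2 rose, 6 fell and 4 did not pass. The median log2 difference was -0.12, and over all genes 19.8% were higher and 25% lower. STK11, the kinase LKB1 that activates AMPK, rose by 0.50 ± 0.037 (SE, n = 3 per group), whereas its partner STRADA fell by 0.41. The only probe set of STK11 is of the cross-matching kind. PRKAG2, a regulatory subunit of AMPK, fell by 0.47. PDPK1, which phosphorylates AKT, fell by 0.34, though its 6 probe sets ran from -0.72 to 0.15.

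Substrates and effectors of mTORC1 included rises of about 2-fold in 2 inhibitors of translation. Among the 16 on the arrays, 7 rose, 6 fell and 3 did not pass, beside 19.8% higher and 25% lower over all genes. The median was 0.090. EIF4EBP1, the repressor of cap-dependent translation that mTORC1 inactivates, stood at 0.52, 0.52 and 0.51 in the arrays labelled FAM60A shRNA and at -0.53, -0.53 and -0.50 in those labelled control shRNA. Its difference was 1.04 ± 0.029 (SE, n = 3 per group; limma, adjusted p = 8.08e-07), with 3 of 3 probe sets in the class of 8 to 16. Its relative EIF4EBP2 did not pass (0.050), and the 5 probe sets of EIF4EBP2 ran from -0.33 to 0.47. PDCD4, an inhibitor of the helicase EIF4A that the kinase S6K marks for degradation, stood at 0.56, 0.48 and 0.49 against -0.44, -0.56 and -0.77, a difference of 1.10 ± 0.081 (adjusted p = 3.47e-05). After another quantile normalization the differences were 0.95 for EIF4EBP1 and 0.998 for PDCD4, just under 2-fold, as was PDCD4 at 0.95 without cross-matching probe sets. GRB10, an adaptor that damps growth factor signalling, rose by 0.58, and LARP1, which binds mRNAs of the translation machinery, by 0.49. Among the 6 that fell were both S6 kinase genes, RPS6KB1 (-0.35) and RPS6KB2 (-0.34), and EIF4E (-0.38), the cap-binding protein. RB1CC1 fell most (-0.42). Among the 7 that rose were also EIF4B (0.29) and RPS6 (0.13). EIF4EBP2, RPS6KB1, RPS6KB2, EIF4E, RB1CC1, EIF4B and RPS6 were chosen after their values were seen.

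**Figure D4:**
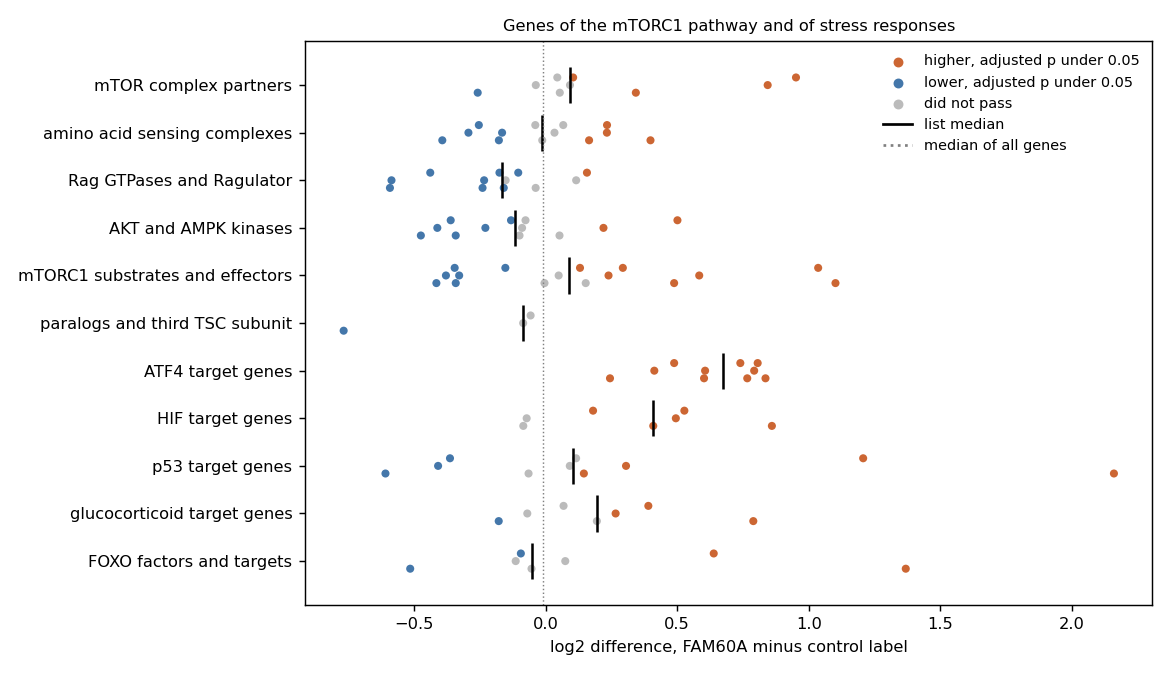
Each point is the log2 difference of 1 gene, FAM60A shRNA minus control shRNA label, by list; orange and blue points passed the threshold of an adjusted p under 0.05 (limma) as higher or lower, grey points did not, the black line is the list median and the dotted line the median of all genes. The ATF4 target genes all lie above 0, the Rag and Ragulator genes mostly below, and the p53 target genes spread from -0.61 to 2.16.

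Genes of the stress responses known to induce DDIT4 or the sestrins were set beside them. For the counts that follow, 19.8% of all genes were higher and 25% lower. Of 10 genes made of ATF4 and its targets, the response to amino acid shortage and endoplasmic reticulum stress, 10 rose, with a median log2 difference of 0.67. VLDLR, a lipoprotein receptor, rose by 0.84, CHAC1, which degrades glutathione, by 0.81, the asparagine synthetase ASNS by 0.79 and TRIB3, a pseudokinase, by 0.77, each with an SE of at most 0.044 (n = 3 per group). ATF4 itself rose by 0.49 and DDIT3, the transcription factor CHOP, by 0.61. Probe sets ran from -0.063 to 0.56 for ATF3, the only gene of this list with a negative one, and from 0.046 to 0.63 for SLC7A11. NUPR1 had 1 probe set, with wide scatter among the arrays labelled control shRNA (SD 0.25, n = 3). SESN2, at 0.71, lay near the median of this list, and DDIT4, at 3.01, lay far above its highest value. Of 7 hypoxia-induced targets of HIF, 5 rose, 0 fell and 2 did not pass, with a median of 0.41. VEGFA, the angiogenic growth factor, rose by 0.86, EGLN3, an oxygen-sensing hydroxylase, by 0.53, NDRG1 by 0.49 and the peptide hormone gene ADM by 0.41. Probe sets ran from 0.13 to 1.25 for VEGFA, from 0.25 to 1.05 for NDRG1 and from 0.15 to 0.89 for EGLN3. BNIP3 (-0.085), a mitophagy receptor, and ANKRD37 (-0.072) did not pass.

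Targets of p53 and of FOXO factors went both ways. Among 10 p53 targets, 4 rose, 3 fell and 3 did not pass, and the median was 0.10, where 19.8% of all genes were higher and 25% lower. GDF15, a stress hormone, rose by 2.16 ± 0.039 (SE, n = 3 per group), although its 5 probe sets ran from 0.32 to 3.26, and BBC3, the cell death inducer PUMA, rose by 1.21. CDKN1A, the cell cycle inhibitor p21, rose by 0.31, and ZMAT3, an RNA-binding protein, fell by 0.61. Of 7 FOXO factors and targets, 2 rose, 2 fell and 3 did not pass, with a median of -0.054 and 57.1% past the test, beside 44.9% of all genes. CITED2, a transcriptional co-regulator, rose by 1.37 and FOXO3 by 0.64, while IRS2, an insulin receptor substrate, fell by 0.51. All probe sets of FOXO3 are of the cross-matching kind. The fall of BCL6 (-0.094) did not pass once a single array, whichever of the 6, was removed (-0.11 to -0.081).

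Of 7 glucocorticoid-induced genes and the receptor NR3C1 among them, 3 rose, 1 fell and 3 did not pass, again 57.1%, with a median log2 difference of 0.19. TSC22D3, the glucocorticoid-induced leucine zipper GILZ, rose by 0.79 ± 0.043 (SE, n = 3 per group), the phosphatase gene DUSP1 by 0.39 and KLF9 by 0.27. Probe sets ran from 0.37 to 1.01 for TSC22D3, from 0.053 to 0.73 for DUSP1 and from 0.011 to 0.48 for KLF9. FKBP5, a co-chaperone of the receptor, had a difference of -0.18 that no longer passed without control shRNA replicate 1 (-0.13) or FAM60A shRNA replicate 2 (-0.17) or 3 (-0.16), and its 6 probe sets ran from -0.41 to 0.19. The receptor gene NR3C1 (-0.070) did not pass, with 10 of 10 probe sets in the lowest level class. Over all 106 genes of these lists, 42 rose and 33 fell, 70.8% against the 44.9% of all genes. The lists were put together with earlier results of these arrays known, so this share is a description.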

How the data were processed

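Expression was measured in 6 samples, 1 Affymetrix array each. The deposited values are log2 expression values of 49395 probe sets, made by the authors with RMA per the submitters' processing notes, and centred on each probe set's median over the 6 arrays, as the values show. The log base is not stated in the file and was taken as 2, as RMA gives. For the program that ran it, the version is not given in the sources used here. Names came from the platform annotation. Controls aside, 44988 probe sets had 1 symbol, 1832 several and 2473 none. No test used the 102 control probe sets. Groups follow the sample titles.

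Genes, as means of their probe sets, and single probe sets were tested between groups in limma 3.58.1 (lmFit, then eBayes; R version 4.3.3), two-sided, with Benjamini-Hochberg adjustment over all genes or probe sets and a threshold of 0.05. The fit and the level class were tested on simulated data. The precision is limited by the number of arrays. Members and lists were chosen with earlier results of these data known. Of 113 list genes, 106 were measured. The rule for named genes took the members, SINHCAF, up to 4 genes per list past the threshold with the smallest p, those past 2-fold, and the 5 genes nearest to DDIT4; other list genes named were chosen after their values were seen. Alternatives were another gene summary, removal of cross-matching probe sets (names ending in x_at or s_at) and a filter on dim probe sets. Others were a robust prior, each array left out and the replicate number as a block. Quantile and cyclic loess normalization were also run, on the centred values rather than on expression levels.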

Additional observations from a re-analysis of the deposited data

How the results depend on the processing

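Counts changed by less than 1.5 times under the alternatives run. Past the threshold were 6999 to 8412 genes against 8136, 7 or 8 mTORC1 genes against 8, and 60 to 82 list genes against 75. The filters also changed how many genes were tested, so these counts are not shares of the same total. Without cross-matching probe sets 6999 of 16701 genes and 60 of 98 list genes passed. Without the lowest level class 8291 of 14626 genes and 7 of 9 mTORC1 genes did. With the replicate number as a block, 8170 genes, 7 of the 10 mTORC1 genes and 74 list genes passed. The numbers were not taken to pair the arrays, since the deviations of same-numbered arrays correlated at 0.16, 0.059 and 0.078. Each control shRNA array nevertheless correlated best with the FAM60A shRNA array of its own number, so these correlations do not settle whether the numbers pair arrays. TSC2 missed the threshold under the block, after another quantile normalization or cyclic loess, and with the probe set of largest variance. With that probe set RPTOR passed at -0.64. DDIT4 kept its direction throughout, from 2.47 to 3.05, the lowest after another quantile normalization. With 1 array left out the difference of SESN3 ran from -0.0819 to 0.0011, the latter without replicate 3 labelled FAM60A shRNA, and without the lowest level class it had no value. FKBP5 also missed the threshold after cyclic loess (-0.15), and BCL6 under the block, both normalizations, the probe set of largest variance and without cross-matching probe sets. STK11, FOXO3 and RRAGA had no value without cross-matching probe sets. The lowest level class also holds most control tags without a target, which limits what can be seen there. The class is coarse, though, and a probe set of DEPTOR in it differed by 0.40 without overlap. The causes were not tested.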
